A study of Mus musculus with 10 samples.

Results

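The genes described here encode MHC class II molecules and the costimulatory proteins that act beside them. They were listed by name, with no threshold on their values: the class II chains H2-Aa, H2-Ab1 and H2-Eb1, the invariant chain Cd74, the peptide-exchange subunits H2-DMa and H2-DMb1, the transactivator Ciita, and the costimulatory genes Cd86, Cd80 and Cd40. Of these 10 genes, 9 had a probe cluster among the 19505 genes with a symbol on the arrays, each with a single cluster. Cd74 was not analysed here. Class I genes, listed in the same way, served as the contrast.

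MHC class II molecules present peptides from the endosomal pathway to CD4+ T cells. An alpha and a beta chain (H2-Aa with H2-Ab1, or an E alpha chain with H2-Eb1) assemble with the invariant chain, and the H2-DM heterodimer then exchanges the invariant chain fragment for antigenic peptide. CIITA, a coactivator that does not bind DNA itself, is needed for class II transcription in antigen-presenting cells and is induced by interferon gamma. Cd80 and Cd86 engage Cd28 on T cells, and Cd40 receives Cd40 ligand from them. MHC class I molecules, by contrast, are made by nearly all nucleated cells, pair with beta-2-microglobulin (B2m) and present peptides from the cytosol to CD8+ T cells. In the healthy retina, microglia, the resident macrophages, are known for low class II levels.

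Gene expression was measured in total retinal RNA on 10 Affymetrix arrays, 2 biological replicates for each of 5 groups of mice. 3 groups were CLN3-deficient (Cln3 delta ex7/8, a model of juvenile neuronal ceroid lipofuscinosis): light-exposed with intraperitoneal minocycline at 45 mg/kg (light plus minocycline), light-exposed with the solvent NaCl at 0.9% (vehicle), and not exposed. The other 2 groups were wild-type: exposed to high light, which the protocol gives as 15000 lux for 60 min, and not exposed. The question was how the light response of CLN3-deficient retinas differs from that of wild-type retinas and whether minocycline, a tetracycline with immunomodulatory effects, changes it. The labels give no dose for the light-exposed CLN3-deficient retinas. The protocol assigns 10000 lux for 30 min to the minocycline study, to which they belong, so the light dose differed between the genotypes, and the vehicle injections came only with light. All exposed mice were dark-adapted for 16 h and had dilated pupils. The study used mice 8 to 10 weeks old of both sexes that carried the light-sensitive leucine variant of Rpe65, introduced by a cross to BALB/c and then 5 generations of C57BL/6J. The labels name Balb/c as the strain of the wild-type mice only, whereas the methods call them littermates. BALB/c and C57BL/6J carry different H2 haplotypes, so for genes of the H2 region genotype and labelled strain cannot be told apart. On which day after light the retinas were taken is not stated for these arrays in the labels.

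The median log2 signal ranged between 7.13 and 7.25 over the arrays, and replicates of a group correlated at 0.989 to 0.994 (Pearson's r across genes). Rod genes such as Sag, which encodes arrestin, were bright on every array (17.72 to 18.83). Cln3 signal was 9.14 to 10.18 in CLN3-deficient retinas and 10.25 to 10.72 in wild-type retinas. The position of its probes relative to the deleted exons was not known here, so this says little about the labels. Transcripts of Y-linked genes such as Eif2s3y were present in both vehicle-treated, both unexposed wild-type and 1 of 2 minocycline-treated retinas and low (2.79 to 3.24) in the other 5. Sex and light thus went together between vehicle-treated and unexposed CLN3-deficient retinas. They also did between high-light and unexposed wild-type retinas, in the opposite direction. The minocycline group alone was mixed. Minocycline replicate 2 and, less so, high-light wild-type replicate 1 had raised pigment epithelium transcripts. Unexposed CLN3-deficient replicate 1 had raised skeletal muscle transcripts. Lens transcripts set arrays apart as well: Cryaa, which encodes a lens crystallin, had 14.58 and 8.16 in minocycline-treated, 13.35 and 9.31 in vehicle-treated and 8.64 and 7.03 in unexposed CLN3-deficient retinas, and 7.50 and 7.18 in high-light and 12.46 and 13.24 in unexposed wild-type retinas. The part of these tissues in the results was not tested. In all, 1282 genes rose and 2152 fell after light in CLN3-deficient retinas (limma, adjusted p under 0.05, n = 2 per group), with 1341 and 1444 after quantile normalization. In wild-type retinas 2044 rose and 3037 fell, with 2609 and 2465 after centring each array on its median. These counts depended on single arrays: without 1 of the 4 arrays compared, 366 to 518 genes rose and 504 to 851 fell in CLN3-deficient retinas, the fewest without unexposed replicate 1, and 829 to 1924 rose and 1440 to 2771 fell in wild-type retinas, the fewest without high-light replicate 1.

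Sequences upstream of class II genes carry a shared arrangement of elements, the X, X2 and Y boxes, which bind the RFX complex, CREB-type factors and NF-Y and to which CIITA is recruited. Classical class I promoters hold related elements together with NF-kB and interferon regulatory factor (IRF) elements. To show which of these letters the class II chains, H2-DM and the class I contrast share, the start regions of 3 class II members and, for contrast, of the class I chain H2-D1 and of B2m are shown. Each runs from 250 bases before the annotated start through the first 50 bases of the transcript (RefSeq, build GRCm38.p6), 5′ to 3′ on the gene's strand, and capitals mark the matched motif letters.
H2-Aa (chr17:34287774-34288073, minus strand): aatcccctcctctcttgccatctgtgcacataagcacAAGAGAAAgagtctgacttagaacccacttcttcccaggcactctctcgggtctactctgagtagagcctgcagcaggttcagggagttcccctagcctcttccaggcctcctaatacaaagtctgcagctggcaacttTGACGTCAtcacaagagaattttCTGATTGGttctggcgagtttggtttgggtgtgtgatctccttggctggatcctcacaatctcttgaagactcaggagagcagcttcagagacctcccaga
H2-Eb1 (chr17:34305617-34305916, plus strand): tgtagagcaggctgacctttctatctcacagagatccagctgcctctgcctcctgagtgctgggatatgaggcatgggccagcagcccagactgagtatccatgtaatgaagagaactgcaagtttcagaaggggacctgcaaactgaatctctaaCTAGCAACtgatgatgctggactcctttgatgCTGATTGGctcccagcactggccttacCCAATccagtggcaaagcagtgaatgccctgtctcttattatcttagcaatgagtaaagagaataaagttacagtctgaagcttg
H2-DMb1 (chr17:34152941-34153240, plus strand): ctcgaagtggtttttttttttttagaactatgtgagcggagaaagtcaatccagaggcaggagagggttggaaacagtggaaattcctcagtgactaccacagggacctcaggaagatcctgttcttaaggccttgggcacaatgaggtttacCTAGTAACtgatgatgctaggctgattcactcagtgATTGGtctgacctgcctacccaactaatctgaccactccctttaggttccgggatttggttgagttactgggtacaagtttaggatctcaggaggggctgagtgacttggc
H2-D1 (chr17:35262844-35263143, plus strand): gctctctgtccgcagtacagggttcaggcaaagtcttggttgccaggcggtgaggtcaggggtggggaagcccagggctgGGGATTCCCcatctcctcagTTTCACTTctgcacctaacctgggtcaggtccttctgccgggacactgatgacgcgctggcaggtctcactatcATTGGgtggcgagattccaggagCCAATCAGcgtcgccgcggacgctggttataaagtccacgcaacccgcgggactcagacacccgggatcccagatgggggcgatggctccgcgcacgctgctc
B2m (chr2:122147437-122147736, plus strand): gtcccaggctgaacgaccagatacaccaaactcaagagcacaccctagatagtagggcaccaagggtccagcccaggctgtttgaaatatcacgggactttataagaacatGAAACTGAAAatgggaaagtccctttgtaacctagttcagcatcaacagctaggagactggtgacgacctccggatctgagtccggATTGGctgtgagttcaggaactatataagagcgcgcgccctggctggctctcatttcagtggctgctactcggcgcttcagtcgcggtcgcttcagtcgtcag

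The letters searched, on both strands, were CTAGNAAC for the X box, TGACGTCA for the X2 box, ATTGG for the core of the Y box and CTGATTGG for its extended form, AANNGAAA for the IRF element, GAAANNGAAA for the interferon-stimulated response element, TTCNNNGAA for the gamma-activated site and GGGATTCCC for the class I NF-kB element. The extended Y box contains the core, and the response element contains the IRF element. Of 32851 start regions of the same length, 3.62% held the X box letters, 1.79% the X2 letters, 37.4% the core Y box and 4.1% its extended form, 23.9% the IRF element, 3.44% the response element, 8.3% the gamma-activated site and 0.353% the NF-kB element. H2-Eb1 had the X box at -94 and the extended Y box at -62, counted to the leftmost base from the start. H2-DMb1 had an X box at -97 and a core Y box at -61. H2-Aa had the X2 letters at -74 and the extended Y box at -51, with an IRF element at -213. H2-D1 had the NF-kB letters at -170, an IRF element at -150 and the extended Y box, on the opposite strand, at -53. B2m had the response element at -139 and a core Y box at -53. None of these 5 start regions held the letters of the gamma-activated site. Of the 10 members, 5 had a start region in the RefSeq table. H2-DMa, with 2 annotated starts, had a core Y box at -198 and an IRF element at -25 in one window and none of these letters in the other, and Cd80 had an IRF element at 31 bases into the transcript. These matches describe the letters and were not tested as binding sites.

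After light, the 3 class II chains rose in CLN3-deficient retinas, while H2-DM, Ciita and the costimulatory genes did not pass the test. Signal was low for many members. Over all arrays it averaged 4.27 for Cd80, 4.30 for H2-DMa, 5.02 for H2-DMb1, 5.30 for Cd40, 5.35 for Cd86 and 5.63 for Ciita. The chains had 4.88 (H2-Eb1), 6.19 (H2-Ab1) and 6.94 (H2-Aa), and the median gene 7.41. Without detection p-values, whether a change in the dimmer genes could be seen is not known. H2-Aa, the A alpha chain, had log2 signals of 7.70 and 8.21 in vehicle-treated, light-exposed retinas, against 5.91 and 5.93 in unexposed CLN3-deficient retinas. This was a 4.1-fold increase (log2 fold change 2.04 ± 0.25 SE, limma adjusted p = 0.00136, n = 2 per group). H2-Ab1, the A beta chain, had 7.40 and 7.10 in light-exposed and 5.72 and 5.15 in unexposed CLN3-deficient retinas, a 3.52-fold increase (log2 1.82 ± 0.36, adjusted p = 0.00681). H2-Eb1, the E beta chain, had 5.57 and 5.93 in light-exposed and 4.47 and 4.53 in unexposed CLN3-deficient retinas, a 2.38-fold increase (log2 1.25 ± 0.23, adjusted p = 0.00515). For each chain, both light-exposed arrays lay above both unexposed arrays. Called higher were thus 3 of 9 members, against 6.57% of all genes, and the median log2 fold change was 0.82 over the members and 0.00 over all genes. By the threshold of the study's methods, a log2 fold change of at least 2 with an unadjusted p under 0.05, H2-Aa was the only member called, against 0.846% of all genes.

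**Figure D1:**
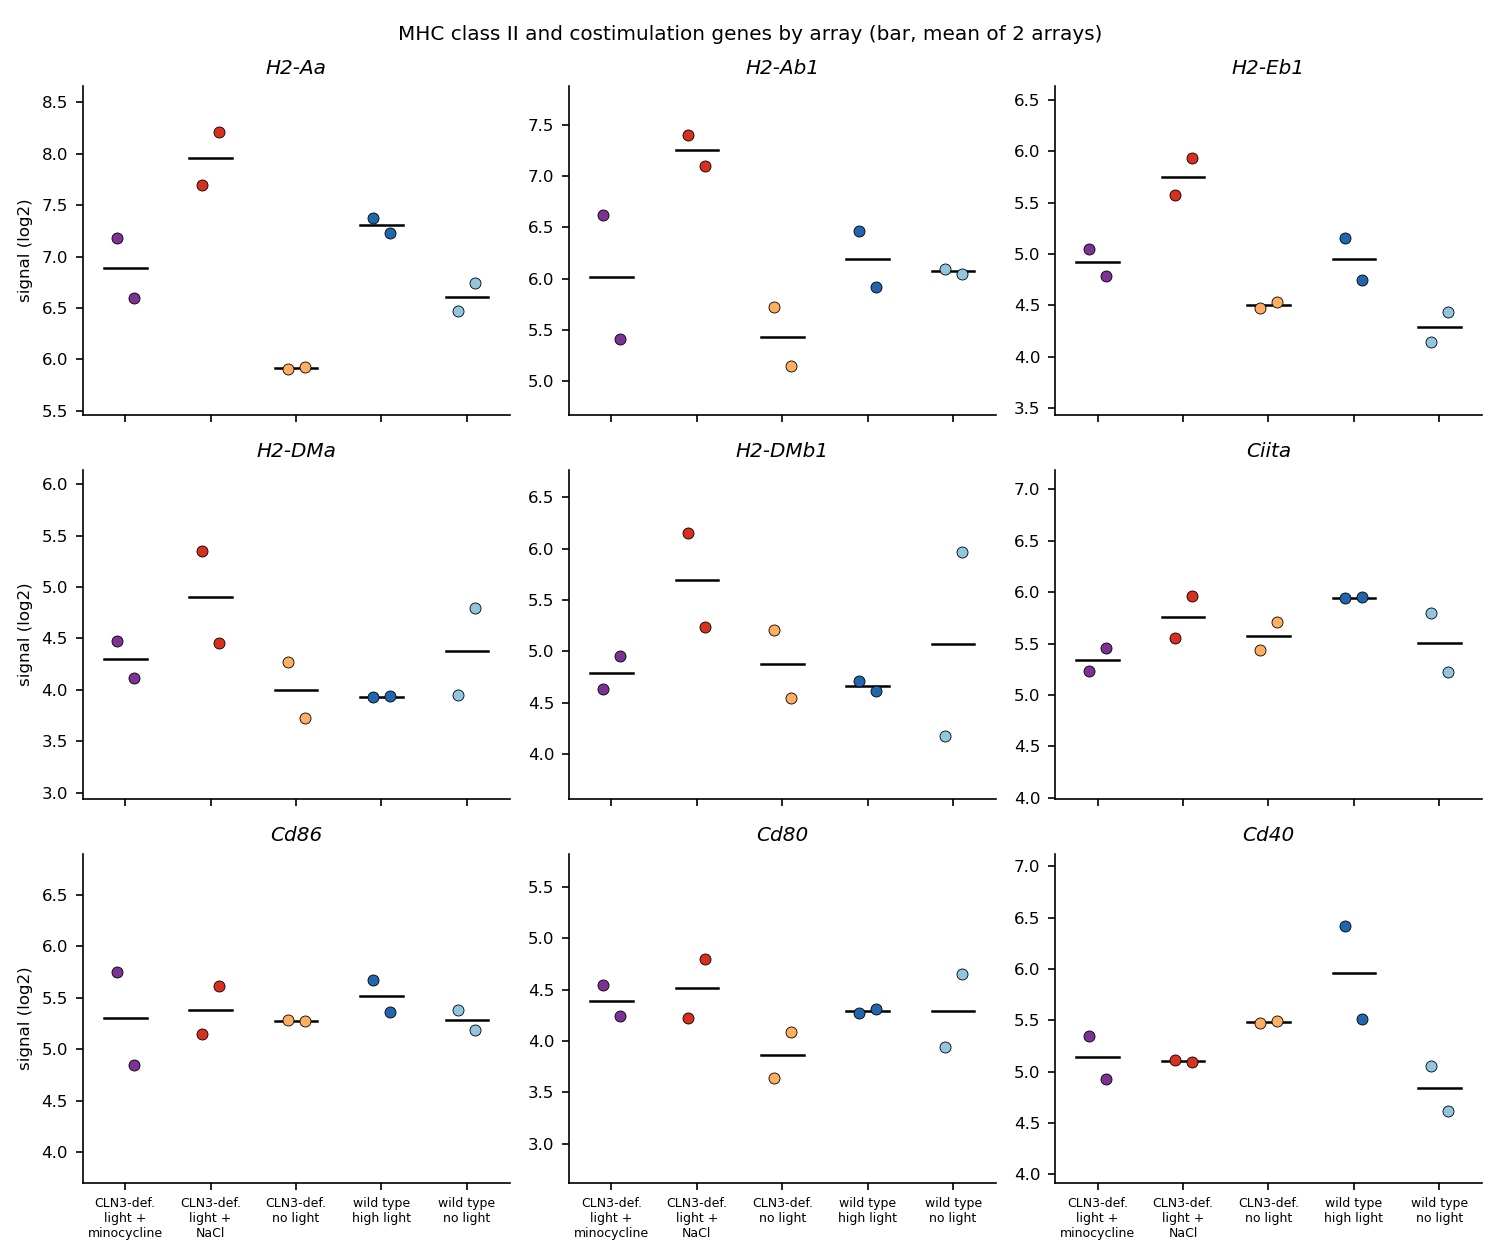
Log2 signal of the 9 members on each of the 10 arrays (points) with the mean of the 2 arrays of each group (bars), 1 panel per gene with an axis of the same length centred on that gene's values. H2-Aa, H2-Ab1 and H2-Eb1 are highest in light-exposed, vehicle-treated CLN3-deficient retinas, whereas Cd40 is highest in wild-type retinas after high light (6.42 and 5.51).

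The peptide-exchange subunits had the same sign but more spread. H2-DMa had 5.35 and 4.46 in light-exposed and 4.27 and 3.73 in unexposed CLN3-deficient retinas (log2 fold change 0.90 ± 0.34 SE, limma adjusted p = 0.0915). H2-DMb1 had 6.15 and 5.24 in light-exposed and 5.21 and 4.55 in unexposed CLN3-deficient retinas (0.82 ± 0.48, adjusted p = 0.279). In both genes the arrays of the 2 groups did not overlap, but the light-exposed replicates of H2-DMb1 lay 0.91 apart and the unexposed ones 0.66. Ciita had 5.55 and 5.96 in light-exposed and 5.44 and 5.71 in unexposed CLN3-deficient retinas, with overlapping arrays. Its difference was 0.18 on the log2 scale, with a 95% interval of -0.36 to 0.72.

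Of the costimulatory genes, none passed the test in this comparison. Cd80, a ligand of Cd28 and Ctla4, had 4.22 and 4.80 in light-exposed and 3.64 and 4.09 in unexposed CLN3-deficient retinas (log2 fold change 0.64, 95% interval 0.02 to 1.27, limma adjusted p = 0.147). Cd86, the other ligand of the same receptors, had 5.15 and 5.61 in light-exposed and 5.28 and 5.27 in unexposed CLN3-deficient retinas (0.10, interval -0.53 to 0.74). Cd40, a receptor of the TNF receptor family, had 5.11 and 5.09 in light-exposed and 5.47 and 5.49 in unexposed CLN3-deficient retinas (-0.38, interval -1.02 to 0.26). The Cd86 arrays overlapped between the groups, the Cd80 arrays lay apart above and the Cd40 arrays apart below. Arrays lying apart above were common: they were found for 6 of 9 members and for 30.0% of all genes. For arrays lying apart below, as with Cd40, the share of all genes was not counted.

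The calls of 2 of the 3 chains depended on single arrays. H2-Ab1 had an adjusted p of 0.0606 without vehicle replicate 1 and of 0.0608 without unexposed CLN3-deficient replicate 2, and H2-Eb1 had 0.0505 without vehicle replicate 2. Both vehicle-treated retinas had Y-linked transcripts and both unexposed CLN3-deficient retinas lacked them, so light and sex cannot be told apart in this comparison. A fit with Y-linked signal as a covariate gave log2 fold changes of 1.46 for H2-Aa, 0.60 for H2-Ab1 and 0.99 for H2-Eb1 (limma adjusted p = 0.136, 0.559 and 0.266), and called none of the 19505 genes. The minocycline group was the only one with and without Y-linked signal, so that covariate is the difference between its 2 replicates, which also differed in pigment epithelium transcripts.

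Class I genes rose as well. Of 14 class I chains including B2m, 11 rose and none fell, with a median log2 fold change of 1.76, beside 1.82 for the 3 class II chains, and a highest value of 4.43. H2-M3 and H2-Q4, which encode nonclassical chains, had the smallest p and rose by 1.86 and 3.58. B2m had 17.83 and 17.81 in light-exposed and 14.89 and 14.46 in unexposed CLN3-deficient retinas (log2 fold change 3.14, limma adjusted p = 0.0196). H2-K1, a classical class I heavy chain, had 14.06 and 14.13 in light-exposed and 11.42 and 11.41 in unexposed retinas (2.68, adjusted p = 0.0133). H2-D1, another classical heavy chain, had 9.68 and 9.62 in light-exposed and 7.71 and 7.59 in unexposed retinas (2.0, adjusted p = 0.00993). Among 13 genes of class I peptide supply and loading, 6 rose and 1 fell (median 0.77): the peptide transporter subunit Tap1 and the immunoproteasome subunits Psmb8 and Psmb10 rose by 3.38, 2.72 and 2.02 on the log2 scale, and the chaperone Canx fell by 0.66. Nlrc5, the class I counterpart of Ciita, was not analysed here. Of the 14 class I chains, 3 were called without unexposed CLN3-deficient replicate 1 and 3 without replicate 2, 5 without vehicle replicate 1 and 4 without replicate 2, and none with the Y-linked covariate. Probe clusters of class I chains, of H2-DMb1 and H2-DMb2 and of H2-Eb1 and H2-Eb2 target related sequences, so signal shared between these copies is uncertain.

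Fewer genes passed in the lists around class II, in a comparison where 6.57% of all genes were called higher. H2-DMb2, a paralogue of H2-DMb1, was the one gene to rise among 4 other class II chains and modifiers (5.19 and 4.79 in light-exposed, 3.97 and 4.04 in unexposed CLN3-deficient retinas, adjusted p = 0.0228). H2-Oa and H2-Ob, subunits of the H2-DM inhibitor H2-O, had log2 differences of 0.42 and -0.06. Of 8 genes of endosomal processing and class II turnover, 1 rose (median -0.33). This was Ifi30, the lysosomal thiol reductase GILT, with 10.51 and 10.01 in light-exposed and 7.95 and 7.92 in unexposed CLN3-deficient retinas (log2 fold change 2.33, adjusted p = 0.00223). Of 7 factors that bind class II promoters, none rose and 3 fell (median -0.66), against 11.0% of all genes lower, namely the NF-Y subunits Nfyb (-1.38) and Nfya (-0.82) and the RFX subunit Rfxap (-0.73). The NF-Y subunits are general transcription factors as well as class II regulators. In the interferon gamma axis, 2 of 11 genes rose and 1 fell: the chemokine Cxcl10 by 3.20 and the GTPase Gbp2 by 2.74, whereas the kinase Jak1 fell by 1.35. Ifng itself, singled out after its values were seen, had 5.93 and 5.55 in light-exposed and 5.27 and 5.59 in unexposed CLN3-deficient retinas, with overlapping arrays. Of 13 other costimulatory and coinhibitory ligands, 2 rose (median 0.23): Cd274, which encodes the inhibitory ligand PD-L1 (1.16, adjusted p = 0.0381), and Vsir, which encodes VISTA (1.10, adjusted p = 0.037). Icos, a T cell receptor of the Cd28 family, was the one gene to rise of 7 T cell partners (0.78), and Traf2, a Cd40 adaptor, the one to fall of 7 Cd40 signalling genes (-1.17).

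**Figure D2:**
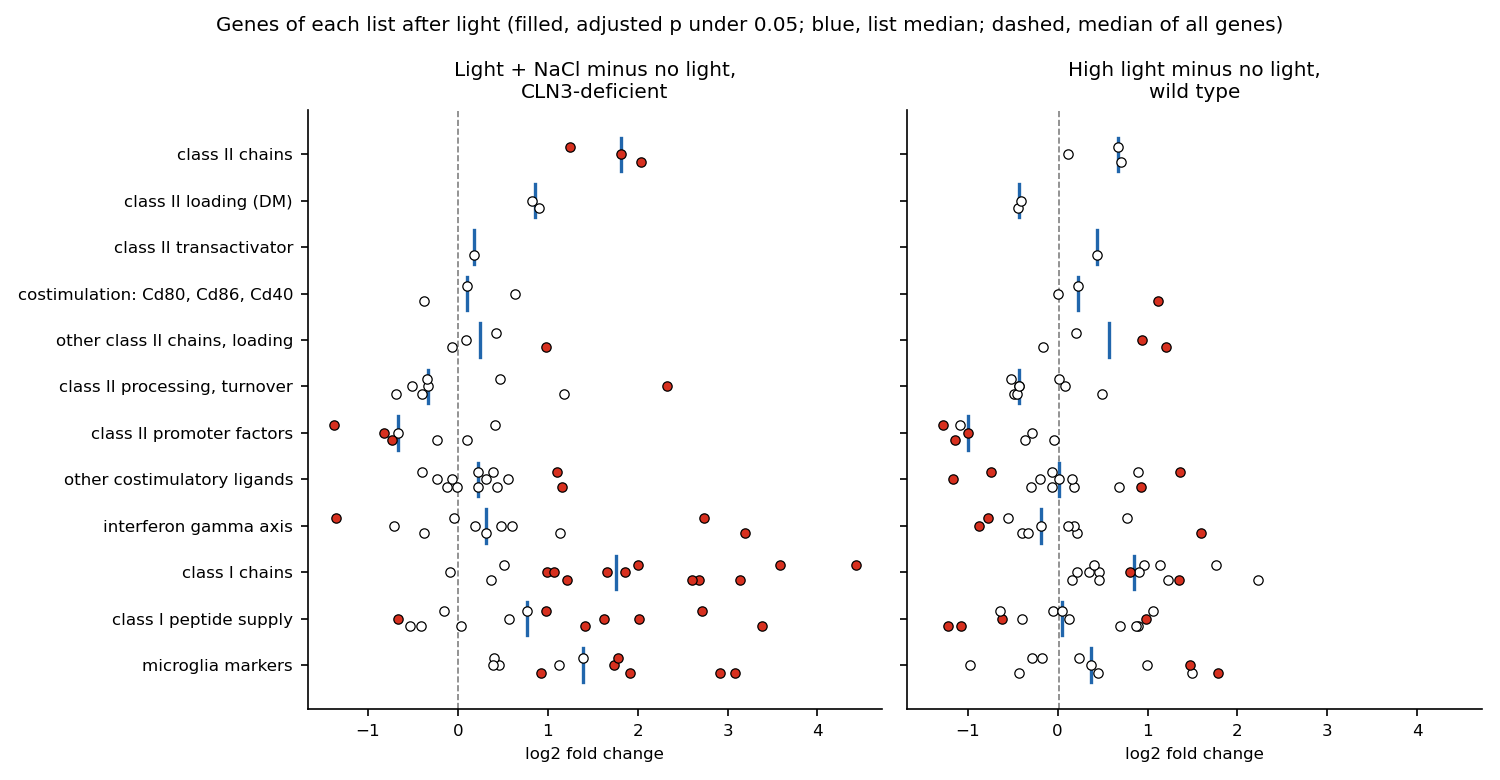
Log2 fold change after light of each gene in 12 lists, in CLN3-deficient retinas (left) and wild-type retinas (right). Filled points passed limma's test at an adjusted p of 0.05, blue bars are list medians and the dashed line is the median of all genes. In CLN3-deficient retinas the class II chain median was 1.82 and the class I chain median 1.76, in wild-type retinas 0.67 and 0.85.

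Markers of class II-bearing cells were read beside these values. Of 11 microglia markers, 6 rose and none fell after light in CLN3-deficient retinas (median 1.39), among them Fcrls, Aif1, Cx3cr1 and Csf1r. Their mean level, as the difference from each gene's mean over all arrays, was 1.04 and 0.68 in light-exposed and -0.55 and -0.67 in unexposed CLN3-deficient retinas. The class II chains stood at 0.89 and 1.08 in light-exposed and -0.64 and -0.80 in unexposed CLN3-deficient retinas on the same scale. Of 9 dendritic cell markers 1 rose (Itgax, encoding CD11c, log2 0.74) and of 7 perivascular macrophage markers 1 rose (Ms4a7, 2.77), while none of 9 T cell or 6 B cell markers passed. Of 7 monocyte and neutrophil markers Ly6c2 rose (2.96), and of 6 rod markers Nrl and Sag fell (-1.59 and -0.73). Among markers of adjoining tissue, 1 of 9 for pigment epithelium fell (Rlbp1), 1 of 9 for lens rose (Crybb2) and none of 6 for skeletal muscle passed. The share of all genes called in this comparison was 6.57% higher and 11.0% lower, so 1 called gene of a short list says little about a cell type. In these bulk RNA samples, more cells of a type and more RNA per cell cannot be told apart, and the part of microglia markers in the class II values was not tested.

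**Figure D3:**
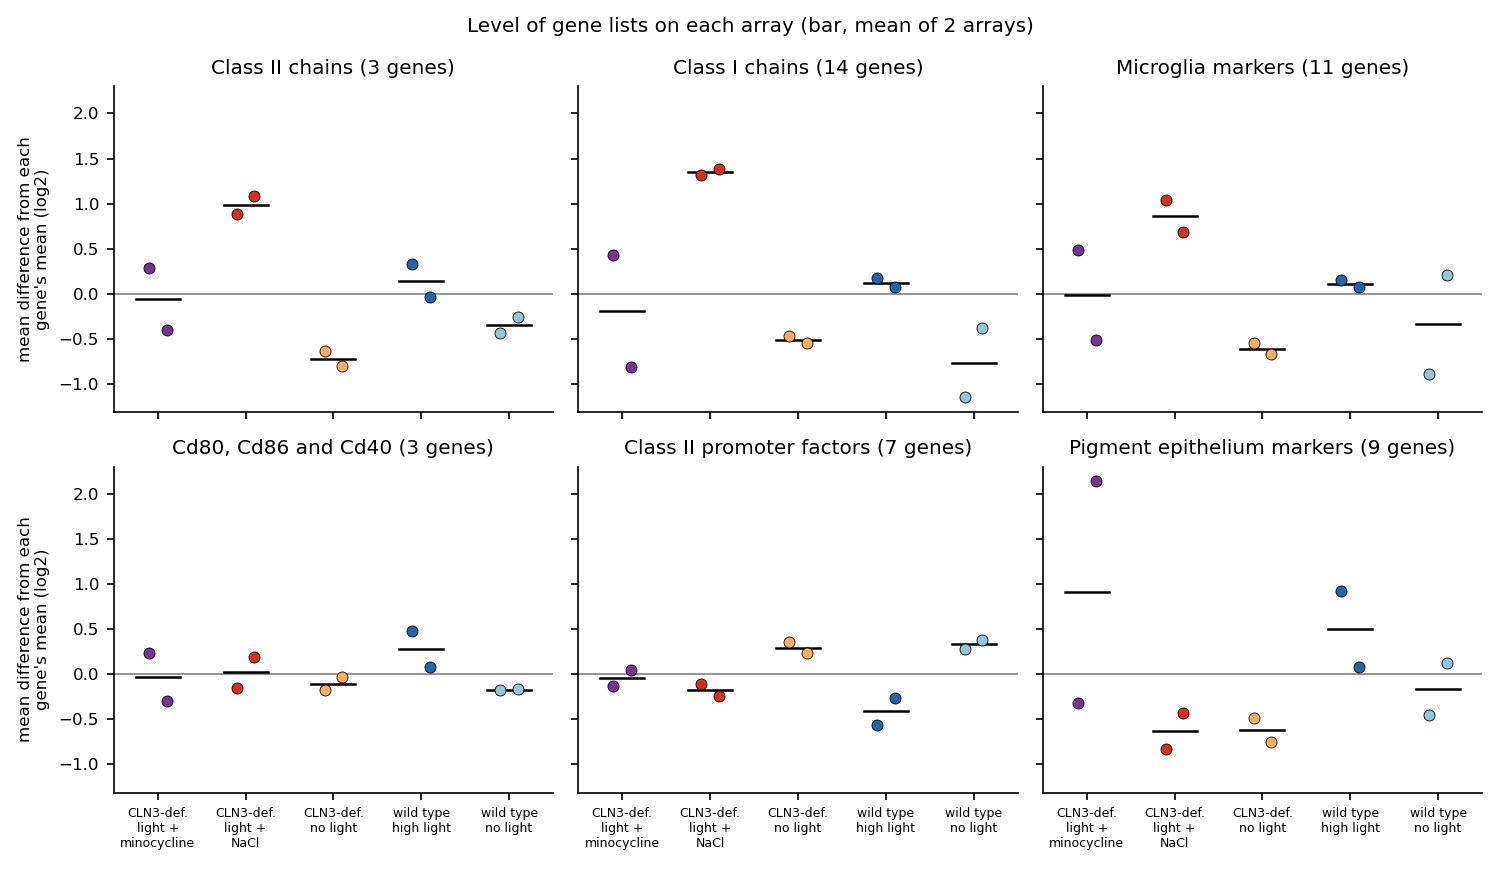
Mean level of 6 gene lists on each array, as the log2 difference from each gene's own mean over the 10 arrays (points), with the mean of the 2 arrays of a group (bars). Class II chains, class I chains and microglia markers are highest in light-exposed, vehicle-treated CLN3-deficient retinas, the costimulatory genes stay between -0.30 and 0.48, and pigment epithelium markers reach 2.14 on minocycline replicate 2.

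In wild-type retinas, Cd40 was the only member to rise after high light at this threshold. Cd40 had 6.42 and 5.51 after high light, against 5.06 and 4.62 in unexposed wild-type retinas, a 2.18-fold increase (log2 fold change 1.12 ± 0.29 SE, limma adjusted p = 0.0167, n = 2 per group). That is 1 of 9 members, against 10.5% of all genes, and it was not called without high-light replicate 1 (0.67, adjusted p = 0.133) or without unexposed wild-type replicate 2 (0.91, adjusted p = 0.109), or after quantile normalization (0.88, adjusted p = 0.0541). Both high-light retinas lacked Y-linked transcripts and both unexposed wild-type retinas had them, so light and sex cannot be told apart here either. High-light replicate 1, with the higher Cd40 value, also had raised pigment epithelium markers. Their mean difference from each gene's mean was 0.92 on replicate 1 and 0.08 on replicate 2, against -0.45 and 0.12 without light. The part of pigment epithelium RNA in the Cd40 value was not tested. H2-Aa had 7.38 and 7.23 after high light and 6.47 and 6.74 without light (0.70 ± 0.25, adjusted p = 0.0598). H2-Eb1 had 5.16 and 4.75 after high light and 4.14 and 4.44 without light (0.67 ± 0.23, adjusted p = 0.0526). For both genes the high-light arrays lay above the unexposed ones, but the share of all genes lying apart in this comparison was not counted. Both passed once each array was centred on its median (limma adjusted p = 0.0391 and 0.0337), where 2609 genes were called higher, against 2044 without centring. H2-Eb1 also passed without high-light replicate 2 (0.87, adjusted p = 0.0382), and H2-Aa with 1 or the other minocycline array left out (adjusted p = 0.0421). H2-Ab1 had 6.46 and 5.92 after high light and 6.09 and 6.05 without light, with overlapping arrays (0.12, 95% interval -0.66 to 0.90).

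The remaining members did not pass in wild-type retinas. H2-DMa had 3.93 and 3.94 after high light and 3.95 and 4.80 without light (log2 fold change -0.44). H2-DMb1 had 4.71 and 4.61 after high light and 4.18 and 5.97 without light (-0.41), so that its unexposed replicates differed by 1.79. H2-DMb1 was called lower without unexposed wild-type replicate 1 (-1.31, adjusted p = 0.0435), a fit in which the higher replicate stood alone and was assumed to vary like the other groups. Ciita had 5.94 and 5.95 after high light and 5.8 and 5.22 without light (0.44, interval -0.10 to 0.97). Cd86 and Cd80 had differences of 0.23 and 0.00, with intervals of -0.40 to 0.86 and -0.63 to 0.62.

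The neighbouring lists gave other genes in wild-type retinas. H2-DMb2 had 4.60 and 5.0 after high light and 3.51 and 3.68 without light (log2 fold change 1.2, limma adjusted p = 0.00702). H2-Eb2 had 4.88 and 4.70 after high light and 3.82 and 3.88 without light (0.94, adjusted p = 0.0169). Of 7 promoter factors, Rfxap, Rfx5 and Nfyb fell and none rose (median -1.0), against 15.6% of all genes lower. Of 14 class I chains, H2-T10 and H2-T3 rose and none fell (median 0.85), and B2m had 16.35 and 15.99 after high light and 12.54 and 15.34 without light (2.23, adjusted p = 0.0574). Among 13 class I supply genes, 1 rose (Tap2) and 3 fell, the chaperones Calr, Canx and Pdia3. Irf1, an interferon-induced activator of Ciita, rose by 1.6. Of 11 microglia markers, Tmem119 and Fcrls rose (median 0.37), and their mean level was 0.15 and 0.07 after high light and -0.89 and 0.21 without light. Among costimulation genes outside the members, Cd48 and Pdcd1lg2 rose and Pvr and Nectin2 fell of 13 ligands, Icos and Tnfrsf9 rose of 7 T cell partners, and Traf2 fell of 7 Cd40 signalling genes. Of 9 T cell markers 4 rose, Cd247, Cd2, Cd4 and Cd8b1, and of 9 dendritic cell markers 3 rose, Clec10a, Ccr7 and Cd209a. Of the other marker lists, Mrc1 rose of 7 perivascular macrophage, S100a9 of 7 monocyte and neutrophil and Blk of 6 B cell markers, while 4 of 6 rod and 4 of 9 lens markers fell. The share of all genes called in this comparison was 10.5% higher and 15.6% lower, so 1 called gene of a short list says little about a cell type. Of 9 pigment epithelium markers, Slc26a4 rose and Rlbp1 fell, and no skeletal muscle marker passed. The part of such cells in the Cd40, H2-DMb2 and H2-Eb2 values was not tested.

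The light responses of the genotypes were compared directly by the interaction of genotype and light, in which no gene of 19505 passed the adjusted threshold in limma (0%), with 1203 more positive and 967 more negative at an unadjusted p under 0.05. With 1 or the other minocycline array left out, neither of which enters the light comparisons, 68 genes were more positive and 11 more negative after adjustment. At an unadjusted p under 0.05, 3 of 9 members had a more positive response in the CLN3-deficient group than in wild type, against 6.17% of all genes, and 1 of 9 a more negative one, against 4.96%. H2-Ab1 differed by 1.70 on the log2 scale (95% interval 0.59 to 2.80, unadjusted p = 0.00602, limma adjusted p = 0.262). H2-Aa differed by 1.33 (interval 0.56 to 2.11, unadjusted p = 0.00292, adjusted p = 0.221). H2-DMa differed by 1.34 (interval 0.29 to 2.40, unadjusted p = 0.0173, adjusted p = 0.342). Cd40 differed by -1.50 (interval -2.41 to -0.60, unadjusted p = 0.00356, adjusted p = 0.23). With the Y-linked covariate, which rests on the minocycline replicates as above, the interaction was -0.73 for H2-Ab1, 0.17 for H2-Aa, 0.62 for H2-DMa and -2.35 for Cd40. The medians were 1.33 over the 5 class II chains and H2-DM genes, 0.89 over the class I chains, 0.69 over the class I supply genes and -0.02 over all genes. Light dose, vehicle injection and sex were not balanced in this comparison, and their part in these differences was not tested.

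Minocycline-treated, light-exposed CLN3-deficient retinas had lower class II chain signals than vehicle-treated ones, none past the adjusted threshold. H2-Aa had 7.18 and 6.60 with minocycline, against 7.70 and 8.21 with vehicle (log2 fold change -1.06 ± 0.25 SE, unadjusted p = 0.00125, limma adjusted p = 0.274, n = 2 per group). H2-Ab1 had 6.62 and 5.41 with minocycline and 7.40 and 7.10 with vehicle (-1.24 ± 0.36, unadjusted p = 0.00501, adjusted p = 0.483). H2-Eb1 had 5.05 and 4.79 with minocycline and 5.57 and 5.93 with vehicle (-0.83 ± 0.23, unadjusted p = 0.00381, adjusted p = 0.443). All 3 chains had both minocycline arrays below both vehicle arrays. Of all genes, 0.0154% passed the adjusted threshold. At an unadjusted p under 0.05, 3 of 9 members were lower, against 3.76% of all genes, and 5 of 9 had arrays lying apart below, against 17.4%.

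H2-DMa and H2-DMb1 differed by -0.60 and -0.90, with 95% intervals of -1.35 to 0.14 and -1.96 to 0.15. H2-DMb1 had 4.63 and 4.95 with minocycline and 6.15 and 5.24 with vehicle. Ciita had 5.23 and 5.46 with minocycline and 5.55 and 5.96 with vehicle (log2 difference -0.41, interval -0.95 to 0.13). Its arrays lay apart, below with minocycline. Cd86, Cd80 and Cd40 had overlapping arrays and differences of -0.08, -0.12 and 0.04, with intervals of -0.71 to 0.55, -0.75 to 0.51 and -0.60 to 0.68. Cd86 had the widest gap between minocycline replicates of the 3, with 5.75 on replicate 1 and 4.85 on replicate 2.

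**Figure D4:**
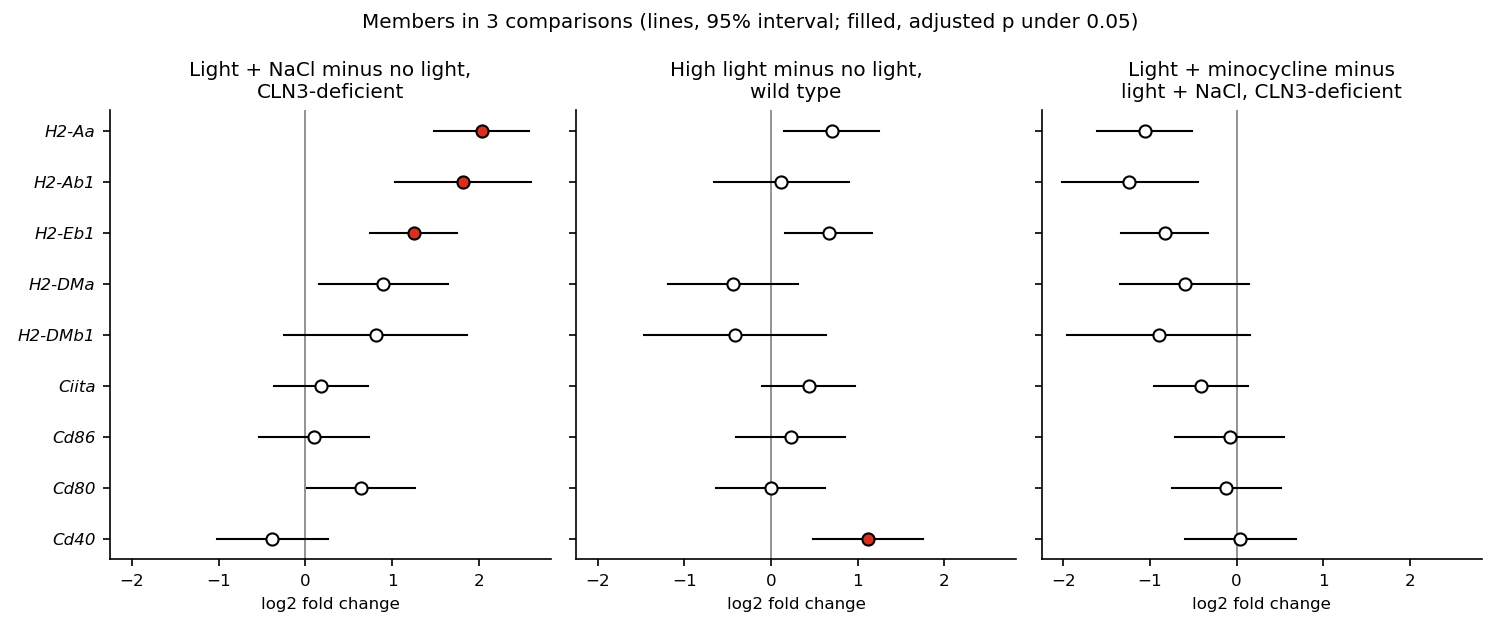
Log2 fold change of the 9 members with 95% intervals (limma, all 10 arrays) for light in CLN3-deficient retinas, high light in wild-type retinas and minocycline against vehicle. Filled points have an adjusted p under 0.05: H2-Aa, H2-Ab1 and H2-Eb1 on the left, Cd40 in the middle and none on the right.

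Class I signals were also lower with minocycline without passing the adjusted threshold. Of 14 class I chains, 10 were lower at an unadjusted p under 0.05 and none passed after adjustment (median -1.62), with H2-M3 and H2-Q4 at adjusted p values of 0.0662 and 0.0967. B2m had 16.90 and 14.57 with minocycline and 17.83 and 17.81 with vehicle. H2-K1 had 12.57 and 10.77 with minocycline and 14.06 and 14.13 with vehicle. The class I supply genes had a median of -0.81 and the 11 microglia markers of -0.72. The 2 minocycline replicates differed throughout: the class II chains stood at 0.28 on replicate 1 and -0.40 on replicate 2, the class I chains at 0.43 and -0.81 and the microglia markers at 0.48 and -0.51 (differences from each gene's mean). Replicate 2 was also the array with the highest level of pigment epithelium markers (2.14, against -0.83 to 0.92 on the other arrays) and lacked Y-linked transcripts. Without replicate 2, the median of the class II chains was -0.70 and that of the class I chains -0.99. Without replicate 1, the medians were -1.36 and -1.99, and H2-Ab1 (-1.84, adjusted p = 0.0182) and 9 class I chains were called lower, in a fit that called 59 genes higher and 135 lower of all genes, against 0 and 3 with both replicates. The part of pigment epithelium RNA, sex and microglia markers in these values was not tested.

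Against unexposed CLN3-deficient retinas, minocycline-treated, light-exposed retinas had more H2-Aa, 7.18 and 6.60 against 5.91 and 5.93 in unexposed ones (log2 fold change 0.97 ± 0.25 SE, limma adjusted p = 0.0326). It was the one member called of 9, against 3.77% of all genes, and this comparison shares its unexposed arrays with the vehicle comparison above. H2-Aa was not called without minocycline replicate 1 (0.68, adjusted p = 0.197), without unexposed replicate 1 (0.96, adjusted p = 0.169) or without unexposed replicate 2 (0.98, adjusted p = 0.132). H2-Ab1 and H2-Eb1 had differences of 0.58 and 0.42, with 95% intervals of -0.20 to 1.36 and -0.08 to 0.92. No class I chain was called (median 0.29).

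Between the genotypes, no member passed the adjusted threshold with or without light. Without light, H2-Aa was lower in the CLN3-deficient group, 5.91 and 5.93 against 6.47 and 6.74 in wild-type retinas (log2 fold change -0.68, unadjusted p = 0.0189, limma adjusted p = 0.997). Both unexposed CLN3-deficient retinas lacked Y-linked transcripts and both unexposed wild-type retinas had them, and after light the reverse held, so genotype and sex cannot be told apart in either comparison. Labelled strain, which bears on the H2 genes, also went with genotype in both. After light, the light dose and the vehicle injections differed between the genotypes too. The part of each was not tested. Also without light, Cd40 was higher in the CLN3-deficient group, 5.47 and 5.49 against 5.06 and 4.62 in wild-type retinas (0.64, unadjusted p = 0.0495, adjusted p = 0.997). These were 1 of 9 members in each direction, against 2.26% of all genes lower and 2.10% higher, and 0.0461% of all genes passed after adjustment. After light, H2-Aa, H2-Ab1, H2-Eb1 and H2-DMa were higher in the CLN3-deficient group at an unadjusted p under 0.05, 4 of 9 members against 7.65% of all genes. The differences were 0.65, 1.06, 0.79 and 0.97 on the log2 scale (adjusted p = 0.242, 0.185, 0.132 and 0.204). Cd40 was lower in CLN3-deficient retinas after light, 5.11 and 5.09 against 6.42 and 5.51 in wild-type retinas (-0.86, unadjusted p = 0.0123, adjusted p = 0.186), 1 of 9 members, again against 7.65% of all genes. No member was among the 0.687% of all genes higher and 0.113% lower after adjustment. With the Y-linked covariate, under the same limit, H2-Aa was at -0.10 and Cd40 at 1.06 without light. After light H2-Aa was at 0.07, H2-Ab1 at -0.15, H2-Eb1 at 0.53, H2-DMa at 0.61 and Cd40 at -1.28.

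Over the 5 groups, H2-Aa averaged 6.89 ± 0.41 in minocycline-treated, 7.96 ± 0.36 in vehicle-treated and 5.92 ± 0.01 in unexposed CLN3-deficient retinas, and 7.30 ± 0.11 in high-light and 6.60 ± 0.19 in unexposed wild-type retinas (log2 signal, mean ± SD, n = 2 each). H2-Eb1 averaged 4.92 ± 0.18 in minocycline-treated, 5.75 ± 0.25 in vehicle-treated and 4.50 ± 0.04 in unexposed CLN3-deficient retinas, and 4.96 ± 0.29 in high-light and 4.29 ± 0.21 in unexposed wild-type retinas. For both, the vehicle-treated arrays were above all other arrays. Ciita averaged 5.35 ± 0.16 in minocycline-treated, 5.76 ± 0.29 in vehicle-treated and 5.58 ± 0.19 in unexposed CLN3-deficient retinas, and 5.94 ± 0.01 in high-light and 5.51 ± 0.41 in unexposed wild-type retinas. For Ciita, the 2 high-light wild-type arrays were exceeded by vehicle replicate 2 alone, and the arrays of the other 4 groups overlapped with those of at least 1 other group. Genes whose values followed a member were ranked with predicted genes left out. Closest to H2-Aa over the 10 arrays were Srgn, the proteoglycan serglycin (Pearson's r = 0.979), Tap1 (0.949) and Lrch1 (0.945). Spi1, the myeloid transcription factor PU.1 (0.945), and Tmem106a (0.944) came next. The closest to Ciita were Krt84, Rnf225, Tm4sf4, Olfr1286 and Eda (0.952 to 0.913), and the closest to Cd86 were Supt3, Iscu, Chrm1, Klrc2 and Cyp4a31 (0.935 to 0.873). These are the top values among the 19505 genes, less the predicted ones, over 10 arrays from 5 groups and carry no test. None of the 5 closest to Ciita or Cd86 was a class II or class I gene.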

How the data were processed

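Total RNA from retinas was hybridised to Affymetrix arrays, 2 for each of 5 groups, and 1 value per transcript cluster was analysed. The deposited values are log2 signals that the authors made with Affymetrix Expression Console from the scanned arrays, and neither the labels nor the methods name the algorithm or its version. The platform's annotation names Clariom S clusters, whereas the study's methods name another mouse array. The table held 22206 clusters with values between 2.7 and 19.5. Of these, 19572 had 1 gene symbol and 2634 were not listed. For 55 genes with several clusters, the cluster with the highest mean was kept, which left 19505 genes. None of the members had several clusters. The files hold no detection p-values, 25.8% of genes averaged below 5, and the number of arrays limits the precision.

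Groups were compared with limma 3.58.1 in R 4.3.3 on all 10 arrays in 5 groups (5 residual degrees of freedom, 6.49 prior, median SE of a difference 0.24), with Benjamini-Hochberg adjustment over all 19505 genes and a threshold of 0.05, in 7 comparisons. A fold change is a difference of log2 signals, and levels of different probes were set side by side only to show which genes were dim or bright. An exact permutation test of 2 arrays against 2 cannot go below p = 0.333, so single genes were tested only through the fit. Called means an adjusted p under 0.05, and arrays lying apart means that both arrays of a group were above or below both of the other. As alternatives, each array was left out in turn, Y-linked signal was added as a covariate, the arrays were quantile-normalized or centred on their medians, the 30% dimmest genes were dropped, every cluster was its own row, the fit was trended and robust or held only the 2 to 4 groups of a comparison, and the methods' t-test was run.

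The 10 members and the 20 other gene lists were chosen with earlier results of these data known. In each list the genes with the smallest p, up to 4, were named, with H2-K1, H2-D1 and B2m by name, and any other called gene of a list only where it completes a count. Cd74, H2-Ea, Nlrc5 and some further listed genes were not analysed here. The replicates are biological duplicates whose numbers follow the order of the samples. The limma p-values rest on the spread between duplicate retinas, pooled over the 5 groups and in part shared across all genes. They do not rest on the retinas of a comparison alone.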

Additional observations from a re-analysis of the deposited data

Results flagged for a closer look

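H2-DMa and Cd40 lay in opposite directions after light in the 2 genotypes on every array. Both members were flagged for this pattern, and the share of all genes with the same pattern was not counted. Whether it is unusual among all genes is therefore not known. Arrays lying apart were common: 30.0% of all genes lay apart above after light in CLN3-deficient retinas. H2-DMa, a subunit of the peptide-exchange factor, was higher on both vehicle-treated arrays than on both unexposed arrays in CLN3-deficient retinas and lower on both high-light arrays than on both unexposed arrays in wild-type retinas. The difference between the responses was 1.34 on the log2 scale (limma, unadjusted p = 0.0173, adjusted p = 0.342). Its unexposed wild-type replicates lay 0.85 apart. Cd40 lay the other way, lower after light in CLN3-deficient and higher after high light in wild-type retinas, with a difference of -1.5 (limma, unadjusted p = 0.00356, adjusted p = 0.23). Its high-light replicates lay 0.91 apart. No gene on the arrays passed the adjusted threshold for this difference, whereas 68 were more positive and 11 more negative with 1 or the other minocycline array left out. Light dose, vehicle injection and sex differed between the light groups of the genotypes, and their part was not tested.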

How the results depend on the processing

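The 23 single-gene results with an unadjusted p under 0.05 had 280 values under the alternatives, counting left-out arrays of the compared groups only. Of these, 253 kept their direction and side of the threshold, 21 lost the call, 4 gained it and 2 reversed. The call that H2-Aa gained in wild-type retinas with 1 or the other minocycline array left out is outside this count. Most of the 23 were not called in the main fit and could not lose a call, so 253 overstates stability. The 21 losses fell on the called results alone. These were the 3 class II chains after light in CLN3-deficient retinas, Cd40 in wild-type retinas and H2-Aa for light with minocycline. The count of members higher after light in CLN3-deficient retinas was 3. It was 0 with the Y-linked covariate and 0 by the methods' t-test, and 2 to 3 when each array was left out. After high light in wild-type retinas 1 member was higher, with 0 under the covariate, the t-test, quantile normalization and without the 30% dimmest genes, where Cd40 itself is left out. The count was 3 with median centring and 0 to 2 with each array left out, and members lower were 0 to 1 against 0. For minocycline against vehicle, 0 to 1 members were lower with each array left out, against 0. For light with minocycline, 1 member was higher, with 0 under the covariate, the t-test, quantile normalization and only the groups compared, and 0 to 1 with each array left out. The reversed values were H2-Ab1 for genotype by light (-0.73) and for genotype after light (-0.15), both with the covariate, which equals the difference between the 2 minocycline replicates by construction. For the other changes the cause was not tested. The methods' t-test, with 2 arrays a group, pools the spread of each gene over the compared groups alone and shares none across genes. By this test, 2 genes were higher and 6 lower after light in CLN3-deficient retinas, against 1282 and 2152. With only the groups compared, or with 1 or the other minocycline array left out, genotype by light called 68 genes higher and 11 lower, and by the t-test 3 and 0, against 0 and 0. No paired analysis was possible because the labels carry no replicate number shared between groups.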
